A study of Mus musculus with 6 samples.

Results

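The CCN family comprises Ccn1 to Ccn6, which encode secreted cysteine-rich proteins of the extracellular matrix. The genes, known earlier as Cyr61, Ctgf, Nov, Wisp1, Wisp2 and Wisp3, were picked by symbol, and all 6 were found among the 55401 genes of the count data. Transcripts were measured by bulk RNA-Seq of poly(A)-selected RNA in NIH3T3 cells, an immortalized mouse embryonic fibroblast line. The comparisons address which transcripts the TAZ-CAMTA1 (TC) fusion protein alters in these cells, and what aurintricarboxylic acid (ATA) does to them. EV stands for cells with an empty vector under DMSO (n = 2), TC for cells expressing TC under DMSO (n = 1), and TC + ATA for cells expressing TC and given 10 μM ATA (n = 3). All cells were seeded for 16 h and then kept in DMSO or ATA for 48 h, and ATA was not given to EV cells. TC joins TAZ, a co-activator of the TEAD transcription factors, to CAMTA1. The sources used here do not say which promoter drove TC or whether the TC line was a clone.

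CCN proteins are built from modules that resemble parts of insulin-like growth factor binding proteins, von Willebrand factor and thrombospondin, followed in most members by a cysteine knot. They bind integrins, proteoglycans and growth factors and thereby alter adhesion, migration and matrix deposition. In fibroblasts Ccn1 and Ccn2 are widely used as readouts of YAP/TAZ and TEAD activity, and Ccn2 also responds to TGF-β.

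The library totals ran from 58471484 to 74413193 counts. Levels are given as CPM, the count of a gene scaled to the TMM-adjusted total of its library, and differences as log2FC, the log2 fold change of these levels in the fit. All 10 fibroblast markers examined were detected in every library, with summed levels of 14730 to 19400 CPM. Within that list Dcn, Thy1, Pdgfra and Fn1 fell in TC relative to EV, with log2FC values of −2.08, −1.47, −1.20 and −0.83. Vim and Col1a1 rose with 0.64 and 0.53, and the other 4 were not called. Of all genes tested in TC versus EV, 13.2% were lower and 14.8% higher at an edgeR adjusted p of at most 0.05. Over the 4 leukocyte markers the summed level was 2.73 to 8.54 CPM, and EV and TC + ATA overlapped. The count data of every pair of libraries differed beyond sampling noise, most between EV and the TC-expressing cells. The 2 EV libraries stood further apart than any 2 TC + ATA libraries, with 61.3 against at most 6.61 on the chi-square scale per degree of freedom. The labels do not say that replicates were separate cultures, so the p-values measure the spread between these libraries, which may be technical. TC had 1 library, so its values cannot be checked against a replicate. Its spread was assumed to be like that of EV and TC + ATA. In bulk RNA, fewer cells that express a gene and less RNA per cell cannot be told apart.

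The family is scattered over 4 chromosomes of the GRCm38 build. Ccn1 (ENSMUSG00000028195) lies on chromosome 3 from 145646976 to 145649981 on the minus strand. Ccn2 (ENSMUSG00000019997) lies on chromosome 10 from 24595442 to 24598683 on the plus strand, and Ccn6 (ENSMUSG00000062074) on the same chromosome from 39150970 to 39163794 on the minus strand. Ccn3 (ENSMUSG00000037362) and Ccn4 (ENSMUSG00000005124) lie on chromosome 15 on the plus strand, from 54745702 to 54754039 and from 66891320 to 66923201. Ccn5 (ENSMUSG00000027656) lies on chromosome 2 from 163820861 to 163833146 on the plus strand. The coding sequence of Ccn5 spans 4 exons and 251 codons, whereas each of the other members has 5 coding exons and 348 to 379 codons. CCN5 is the member without the cysteine knot module.

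The promoter of Ccn1 is shown because Ccn1 had the highest level of the family and because TC acts through TEAD factors. It holds the 250 bases before the start of the RefSeq transcript, at chr3:145649986-145650235 of GRCm38.p6, read on the minus strand. RefSeq promoter entries matched 2 of the 6 members, Ccn1 and Ccn6. The capitals mark the TEAD motif GGAATG, which lies on the opposite strand, so that the printed strand carries its reverse complement.
Ccn1: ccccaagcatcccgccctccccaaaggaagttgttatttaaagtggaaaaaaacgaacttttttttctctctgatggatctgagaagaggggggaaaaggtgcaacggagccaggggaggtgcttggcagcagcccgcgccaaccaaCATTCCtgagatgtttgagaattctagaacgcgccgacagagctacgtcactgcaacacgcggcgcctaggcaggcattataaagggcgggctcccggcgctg
The motif spans positions −103 to −98 from the transcript start. It occurred on either strand in 12.6% of 32851 mouse promoter windows of the same length, so a match by itself is common. The Ccn1 window held no match to the SMAD motif CAGAC (in 42.2% of windows), the TCF/LEF motif CTTTGAT (3.21%), the AP-1 motif TGANTCA (6.75%) or the CArG box (1.47%). The Ccn6 window held the SMAD motif at positions −22 to −18 and none of the others. These motifs were searched on both strands and do not overlap in either window.

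Per length, the family covered more than 3 orders of magnitude. Ccn1 was the highest in every library, at 136 and 164 CPM per kb of exon in EV, 386 in TC and 364, 379 and 382 in TC + ATA. Ccn2 came next at 35.8 to 57.1 CPM per kb, followed by Ccn4 at 10.0 to 18.2 and Ccn5 at 0.726 to 3.73. This order held in all 6 libraries without overlap. Ccn3 (0.0559 to 0.200 CPM per kb) and Ccn6 (0.0298 to 0.162) lay far below, and these 2 could not be ordered, since Ccn6 was above Ccn3 in EV replicate 1 and TC and below it in the other libraries.

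**Figure D1:**
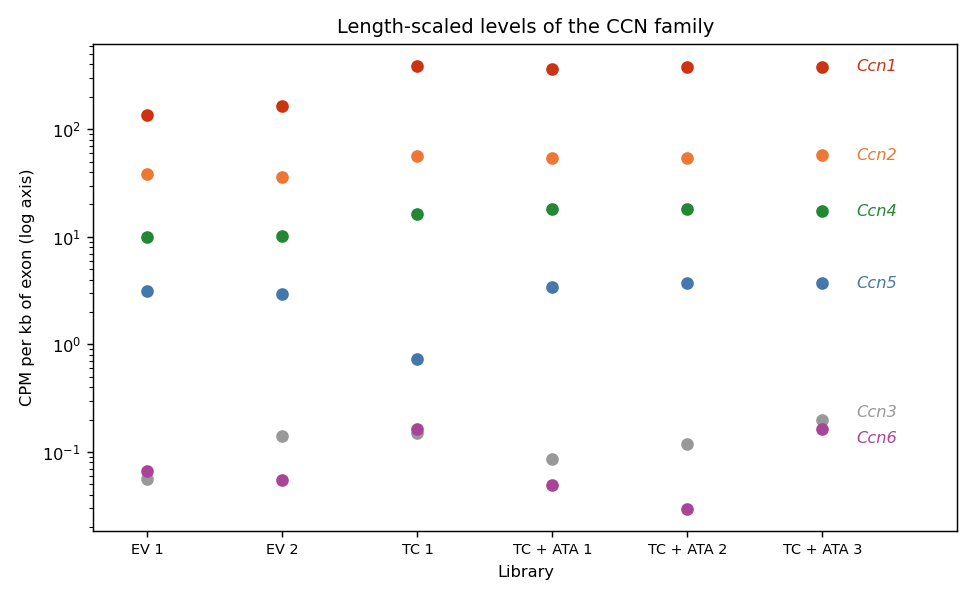
The plot shows the level of each CCN gene per kb of exon (CPM per kb, log axis) in each of the 6 libraries, with 1 point per gene and library. Ccn1, Ccn2, Ccn4 and Ccn5 keep the same order throughout, whereas Ccn5 drops to 0.726 in TC and Ccn3 and Ccn6 overlap at the bottom.

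In TC versus EV, Ccn1, Ccn2 and Ccn4 rose and Ccn5 fell, while Ccn3 and Ccn6 did not pass the test. Thus 3 of 6 members were called higher, where 14.8% of the 18539 genes tested were called higher, and 1 was called lower, where 13.2% of all genes were. Calls are adjusted p-values of at most 0.05 from edgeR's quasi-likelihood test with Benjamini-Hochberg adjustment over all genes tested. The median log2FC of all genes tested was −0.03. Among the members called, Ccn5 was the single gene with an absolute log2FC of at least 2, a limit that 3.64% of all genes passed together with the call.

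Markers of other cell types were detected at low levels. The summed level of the 5 endothelial markers was 2.49 and 1.69 CPM in EV, 3.85 CPM in TC and 3.06 to 3.77 CPM in TC + ATA, and that of the 5 epithelial markers was 0.628 and 0.328 CPM in EV, 1.2 CPM in TC and 0.933 to 1.28 CPM in TC + ATA. For both lists EV was below every TC-expressing library, as it was for Ccn1, Ccn2 and Ccn4, and 0 epithelial markers were called by edgeR or DESeq2, with 2 higher at an unadjusted p under 0.05 in TC + ATA versus EV. Of the endothelial markers, 1 of 5 was called higher in TC versus EV, where 14.8% of all genes were. It was Cdh5, a cadherin of endothelial junctions (log2FC 1.55, edgeR adjusted p = 0.0386), with 49 and 24 reads in EV and 99 in TC. Pecam1 had −0.02 (edgeR adjusted p = 0.98). In TC + ATA versus EV, Cdh5 had 0.465 (edgeR adjusted p = 0.387). There 1 of 5 was called higher, where 18.0% of all genes were, namely Kdr, a VEGF receptor (1.13, edgeR adjusted p = 0.0349), and DESeq2 called 0. No endothelial marker was at 0 in any library. Their part in the CCN differences was not tested.

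Ccn1 encodes CYR61, an integrin ligand that promotes adhesion and migration of fibroblasts. It had 275 and 332 CPM in EV, 780 CPM in TC and 736, 765 and 772 CPM in TC + ATA. The EV libraries were the low ones, and all 4 TC-expressing libraries lay far above them. Its level was 2.57-fold higher in TC than in EV, a log2FC of 1.36 ± 0.11 (SE, edgeR adjusted p = 3.4e-05).

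Ccn2 encodes CTGF, a regulator of matrix production downstream of TGF-β. Its levels were 111 and 102 CPM in EV, 160 CPM in TC and 156, 153 and 163 CPM in TC + ATA. The pattern over the groups resembled that of Ccn1, with EV below every other library, but the difference was smaller. Relative to EV, the log2FC in TC was 0.59 ± 0.08 (SE, edgeR adjusted p = 0.000899), or 1.51-fold.

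Ccn4, the gene of the WNT-inducible protein WISP1, had 55.8 and 56.6 CPM in EV, 90.4 CPM in TC and 100, 101 and 96.0 CPM in TC + ATA. Here too EV was low without overlap, and the 3 TC + ATA libraries were the highest. Relative to EV, the log2FC in TC was 0.69 ± 0.08 (SE, edgeR adjusted p = 0.000209), or 1.61-fold.

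Ccn5, the gene of WISP2, differed in the opposite direction in TC versus EV. It had 6.04 and 5.71 CPM in EV, 1.40 CPM in TC and 6.62, 7.18 and 7.16 CPM in TC + ATA. The TC library alone was low, and EV and TC + ATA lay close together. These levels rest on 452 and 435 reads in EV and 97 reads in TC, for which the exact 95% Poisson interval is 78.7 to 118 and covers counting error only. Ccn5 was 4.20-fold lower in TC than in EV, with a log2FC of −2.07 ± 0.18 (SE, edgeR adjusted p = 4.4e-05). Since its low value comes from 1 library, no second TC library bears on it. With EV replicate 1 or 2 left out, the log2FC relative to EV was 1.22 or 1.5 for Ccn1 and 0.64 or 0.53 for Ccn2. It was 0.66 or 0.69 for Ccn4 and −2.04 or −2.11 for Ccn5. These fits leave 1 EV library and take the spread from TC + ATA, whose libraries lay closer together, so they do not test the calls.

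**Figure D2:**
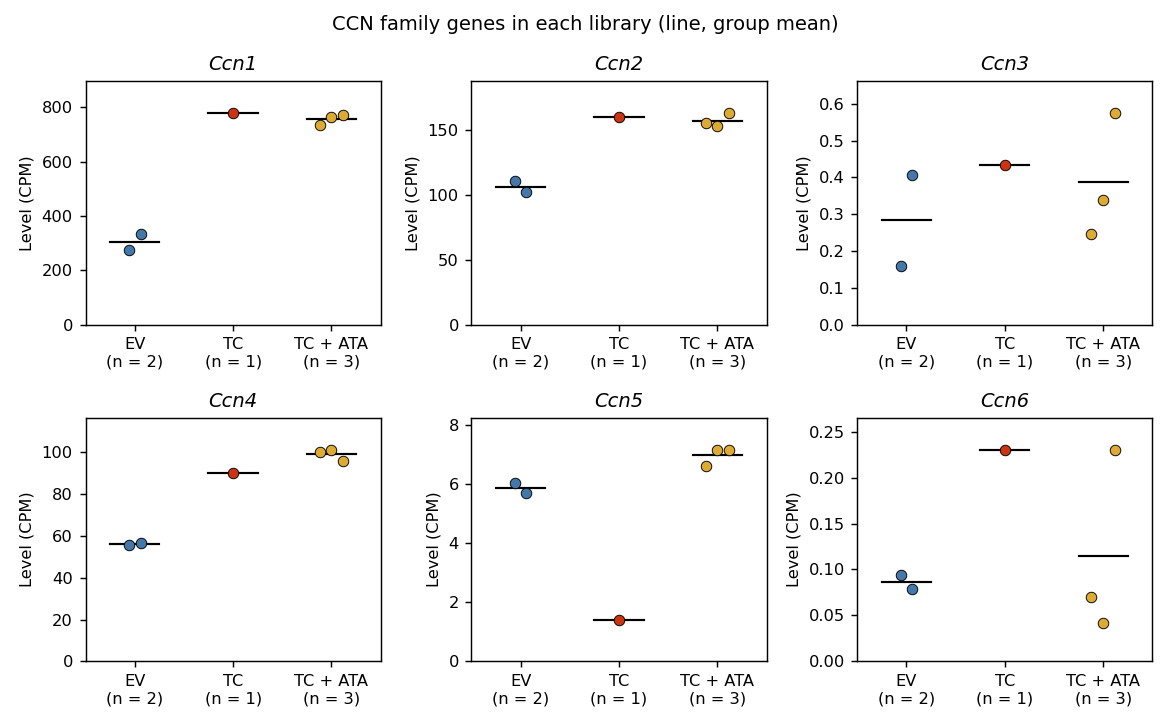
Each panel shows the level of a CCN gene (CPM, axis from 0) in EV (n = 2), TC (n = 1) and TC + ATA (n = 3). Points are libraries and horizontal lines are group means. Ccn1, Ccn2 and Ccn4 are low in EV and high in TC and TC + ATA, Ccn5 is low in TC alone, and the points of Ccn3 and Ccn6 are spread within groups.

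Ccn3 (NOV) and Ccn6 (WISP3) were near the limit of detection. NOV has been described as a NOTCH1 ligand. Ccn3 had 12 and 31 reads in EV, 30 in TC and 14, 24 and 40 in TC + ATA. Ccn6 had 7 and 6 reads in EV, 16 in TC and 4, 3 and 16 in TC + ATA. For Ccn3 the libraries of a group differed as much as the groups, and for Ccn6 TC + ATA replicate 3 had as many reads as TC. Ccn6 passed the filter on low counts through the 16 reads in TC and in TC + ATA replicate 3. The log2FC values in TC versus EV were 0.60 with a 95% interval of −1.03 to 2.24 for Ccn3 and 1.40 with an interval of −0.96 to 3.77 for Ccn6 (edgeR adjusted p = 0.592 and 0.368), so that differences of several fold were not detectable at this depth. The value of Ccn3 was 0.076 without EV replicate 1 and 1.42 without EV replicate 2, neither of them called. The 3 reads of Ccn6 in TC + ATA replicate 2 are at the floor of 3 counts.

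In TC + ATA versus TC, Ccn5 rose and no other member passed the test. This is 1 of 6 members called higher, where 0.426% of all genes tested were called higher. None of the 6 was called lower by edgeR (0.156% of all genes were), none had an unadjusted p under 0.05 in that direction (3.95% of all genes did), and DESeq2 called 0 lower as well. The comparison shares the TC library with TC versus EV, so the values of the pair of comparisons are not independent. Ccn5 was 5.0-fold higher in TC + ATA than in TC, with a log2FC of 2.32 ± 0.18 (SE, edgeR adjusted p = 0.00161).

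For the members that rose with TC, the interval of the difference under ATA was narrow. Its width comes from the spread in EV and TC + ATA, since the spread of TC cannot be measured from 1 library. Relative to TC, TC + ATA had a log2FC of −0.04 for Ccn1 (95% interval −0.29 to 0.21, edgeR adjusted p = 0.947). It was −0.03 for Ccn2 (−0.21 to 0.16, edgeR adjusted p = 0.954). Against the log2FC values in TC versus EV, 1.36 for Ccn1 and 0.59 for Ccn2, the lower bounds of these intervals lie closer to 0. Both comparisons use the same TC library, so a deviation of that library would enter both. Ccn4 had 0.13 (−0.04 to 0.30, edgeR adjusted p = 0.631), with all 3 TC + ATA libraries above TC. All 3 TC + ATA libraries were below TC for Ccn1. The intervals of Ccn3 (−1.69 to 1.39) and Ccn6 (−3.16 to 1.19) were too wide to bound a change.

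TC + ATA and EV are the groups with replicates on each side. Again Ccn1, Ccn2 and Ccn4 rose, 3 of 6 members where 18.0% of all genes were called higher. Mean levels were 304 ± 40.2 CPM (SD, n = 2) in EV and 757 ± 19.3 CPM (SD, n = 3) in TC + ATA for Ccn1, 107 ± 5.84 and 157 ± 5.30 CPM for Ccn2, and 56.2 ± 0.593 and 99.2 ± 2.79 CPM for Ccn4. The log2FC values were 1.32 ± 0.09, 0.56 ± 0.07 and 0.82 ± 0.06 (SE, edgeR adjusted p = 7.2e-06, 0.000175 and 1e-05). No member was called lower by edgeR, where 18.6% of all genes were, or by DESeq2, and 0 of 6 had an unadjusted p under 0.05 in that direction, where 23.3% of all genes did.

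Ccn5 had 5.87 ± 0.239 CPM (SD, n = 2) in EV and 6.99 ± 0.320 CPM (SD, n = 3) in TC + ATA. Every TC + ATA library was above both EV libraries, but the log2FC of 0.25 (95% interval −0.01 to 0.51) did not pass (edgeR adjusted p = 0.121). Ccn5 is thus the member whose level in TC + ATA lay nearest to EV among the 4 that passed in TC versus EV.

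**Figure D3:**
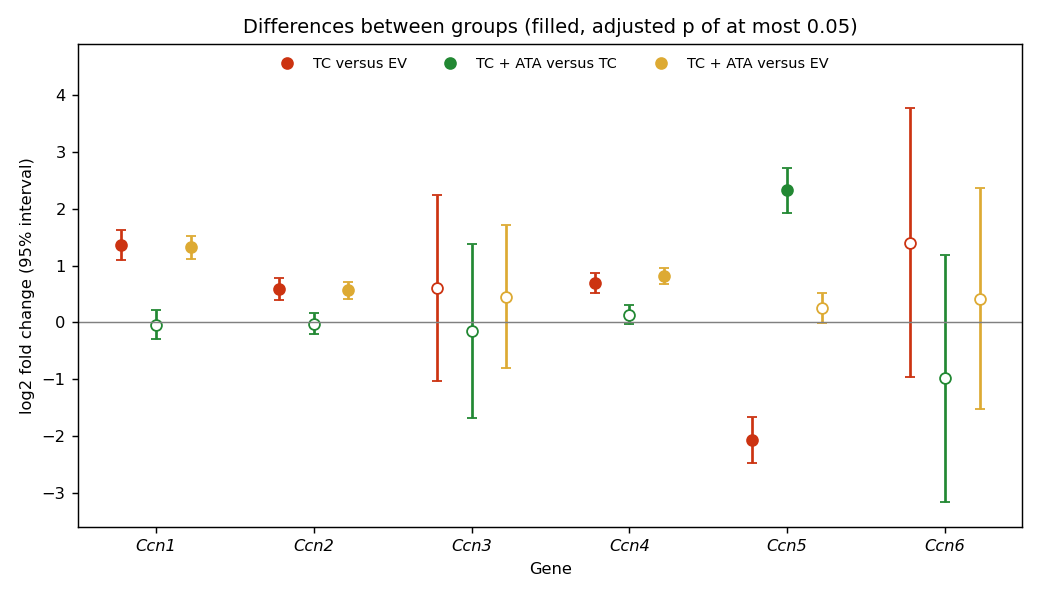
Points are the log2FC values of each CCN gene in the 3 comparisons, bars are 95% intervals, and filled points have an adjusted p of at most 0.05. For Ccn1, Ccn2 and Ccn4 both points relative to EV lie side by side above 0 and that of TC + ATA versus TC lies near 0, whereas Ccn5 stands at −2.07 and 2.32 in the comparisons with TC.

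Ratios between members within a library do not depend on the scaling between libraries. The ratio of Ccn1 to Ccn2, per length, was 3.53 and 4.6 in EV, 6.89 in TC and 6.70, 7.07 and 6.70 in TC + ATA. The EV libraries had the lower ratios without overlap, and TC lay within the range of TC + ATA. The ratio of Ccn4 to Ccn2 was 0.259 and 0.284 in EV, 0.290 in TC and 0.331, 0.340 and 0.302 in TC + ATA. That of Ccn5 to Ccn2 was 0.0812 and 0.0828 in EV, 0.0129 in TC and 0.0632, 0.0697 and 0.0652 in TC + ATA. Relative to Ccn2, Ccn5 was thus below EV in TC + ATA as well. The level of Ccn5 itself was not lower there. In TC + ATA versus EV, Ccn2 was 1.48-fold higher, and Ccn5 was 1.19-fold higher without passing the test. Summed over the family, levels were 448 and 497 CPM in EV, 1033 CPM in TC and 998, 1027 and 1040 CPM in TC + ATA, of which Ccn1 made up the largest part.

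The genes most like each member were taken as those with the smallest root mean square distance of centred log2 levels over the 6 libraries, among 9886 protein-coding genes with a mean of at least 5 CPM. This is a description, and since the libraries fall into few groups, many genes share such a pattern. Lfng, Kitl and Gadd45g were nearest to Ccn1, at distances of 0.04, 0.06 and 0.07. Enoph1, Slc16a13 and Mdfic were nearest to Ccn2 (0.02, 0.03 and 0.04), and Pxk, Tbc1d2b and Grina were nearest to Ccn4 (0.02, 0.03 and 0.04). No gene came as close to Ccn5, whose nearest genes were Fos, Atoh8 and Irf5 at 0.21, 0.28 and 0.28. Fos, an AP-1 subunit, had 5.91 and 7.82 CPM in EV, 1.93 CPM in TC and 5.84, 7.74 and 8.46 CPM in TC + ATA. Irf5, an interferon regulatory factor, had 9.76 and 10.2 CPM in EV, 3.88 CPM in TC and 9.40, 9.82 and 9.45 CPM in TC + ATA. As for Ccn5, TC was the low library in both, which follows from picking genes by their likeness to Ccn5 over these libraries. Within the family, Ccn2 and Ccn4 were nearest to each other (0.13), Ccn1 was 0.28 from Ccn4 and 0.38 from Ccn2, and Ccn5 was 0.81 to 1.04 from these 3.

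Receptors of CCN proteins were followed as a list of 12 genes, namely integrin subunits together with Sdc4, Lrp1, Lrp6 and Notch1. Of the 11 that could be tested in TC versus EV, 4 rose and 3 fell, with a median log2FC of 0.06 (4 to 5 and 3 to 4 under the scaling alternatives). Over all genes tested in that comparison, edgeR called 14.8% higher and 13.2% lower. Itga6, an integrin alpha subunit that also serves in laminin receptors, had 78.0 and 84.4 CPM in EV, 326 CPM in TC and 275, 281 and 264 CPM in TC + ATA, and rose with a log2FC of 2.01 (edgeR adjusted p = 9.2e-07). Itgav, the alpha subunit of several RGD-binding integrins, rose with 1.08 (edgeR adjusted p = 3.2e-05), whereas Itgb5, a beta subunit that pairs with it, fell with −0.99 (edgeR adjusted p = 8e-05). In TC + ATA versus TC, edgeR called 0.426% of all genes higher and 0.156% lower, so 0 calls in a short list say little about it. Here 0 of 11 passed the test in edgeR or DESeq2, and 2 higher and 2 lower had an unadjusted p under 0.05. The smallest adjusted p-values there were those of Itga6 (log2FC −0.26, edgeR adjusted p = 0.311), Itgb5 (0.24, adjusted p = 0.419) and Itgb2 (−0.33, adjusted p = 0.465). Itgb2 pairs in leukocyte integrins, and Itgam, which pairs with it and is also among the leukocyte markers, had too few counts for a test.

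Among 23 genes that act upstream of the CCN genes, 8 rose and 6 fell in TC versus EV, with a median log2FC of 0.06. The edgeR shares over all genes tested there were 14.8% higher and 13.2% lower. Under the scaling alternatives 6 to 9 were called higher and 5 to 7 lower. Tead1 and Tead4, which encode TEAD factors, rose with log2FC values of 1.41 and 1.31 (edgeR adjusted p = 6.4e-06 and 5.3e-06). The other members of that family, Tead2 and Tead3, fell with −0.62 and −0.69 (edgeR adjusted p = 0.000816 and 0.000376), so the TEAD genes moved in both directions. Vgll4, a cofactor that competes with YAP and TAZ for TEAD, rose with 1.21 (edgeR adjusted p = 1e-05). In TC + ATA versus TC, 0 of 23 passed in edgeR, which called 0.426% of all genes higher and 0.156% lower. Of the 23, 1 was called higher by DESeq2, while 1 higher and 1 lower had an unadjusted p under 0.05. Those nearest to the threshold were Tgfb2, a TGF-β ligand (log2FC 0.57, edgeR adjusted p = 0.12), Tead4 (−0.28, adjusted p = 0.204) and Tgfbr2, a TGF-β receptor (0.17, adjusted p = 0.571).

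The insulin-like growth factor binding proteins share their N-terminal module with the CCN proteins. Of 7 Igfbp genes, 6 could be tested, and 2 rose and 0 fell in TC versus EV by edgeR and DESeq2, with 0 lower at an unadjusted p under 0.05. By edgeR, 14.8% of all genes were called higher and 13.2% lower. The median log2FC was 0.65. Igfbp6 rose with 1.24 (edgeR adjusted p = 0.000293). Igfbp3 had 1.87 at less than 0.5 CPM in every library (edgeR adjusted p = 0.112). Igfbp7 had 92.1 and 81.9 CPM in EV, 183 CPM in TC and 286, 282 and 282 CPM in TC + ATA. It rose in TC versus EV (log2FC 1.07, edgeR adjusted p = 3.2e-05) and again in TC + ATA versus TC (0.63, edgeR adjusted p = 0.0198). It was the single call of the list in that comparison by edgeR, where 0.426% of all genes were called higher and 0.156% lower. DESeq2 called 2 of the list higher and 2 lower, and 2 higher and 3 lower had an unadjusted p under 0.05. Igfbp4 (0.53, adjusted p = 0.0807) and Igfbp5 (−0.71, adjusted p = 0.159) came next, and the median of the list was −0.34.

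**Figure D4:**
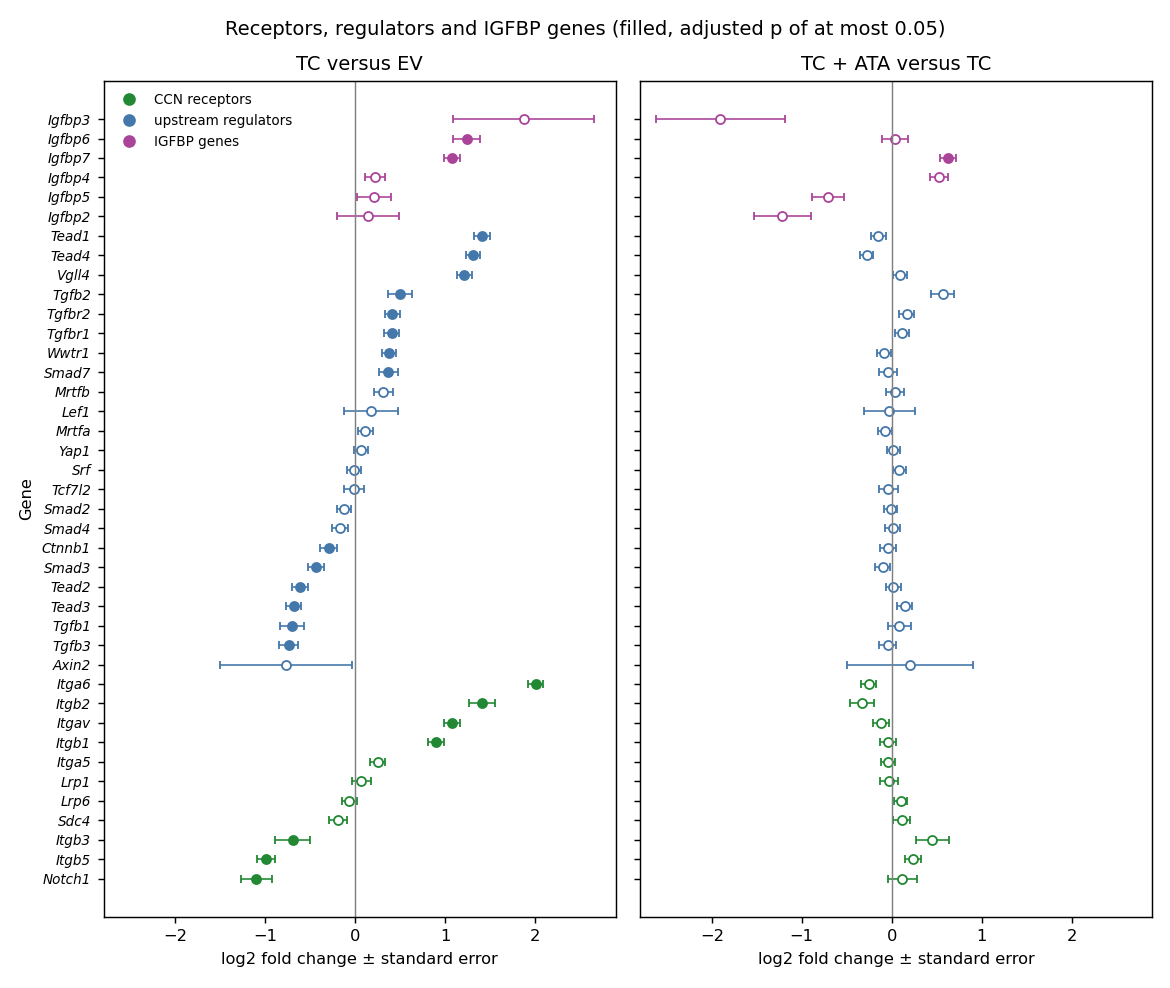
Points are log2FC values and bars standard errors of the receptor, regulator and Igfbp genes tested, in TC versus EV on the left and TC + ATA versus TC on the right, with filled points at an adjusted p of at most 0.05. Called genes lie on both sides of 0 on the left, and Igfbp7 is the filled point on the right.

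The genes beside and across the members were examined too, 18 in all, of which 12 could be tested. Of these, 6 rose and 2 fell in TC versus EV, and 4 to 6 were called higher under the scaling alternatives. The shares over all genes tested were 14.8% higher and 13.2% lower. Gm17501, a long non-coding RNA that begins 331 bp beyond the start of Ccn1 on the opposite strand, had 12.5 and 12.0 CPM in EV, 17.9 CPM in TC and 21.3, 21.7 and 22.5 CPM in TC + ATA, and rose in TC versus EV (log2FC 0.54, edgeR adjusted p = 0.00369). Ddah1, the nearest protein-coding gene on that side at 108694 bp, rose with 1.41 (edgeR adjusted p = 6.9e-06), and Ndrg1, 6117 bp from Ccn4, rose with 0.51 (edgeR adjusted p = 0.00369). Enpp1, 39231 bp from Ccn2, fell with −1.31 (edgeR adjusted p = 3.9e-05) while Ccn2 rose. Beside Ccn5, Ada had 0.20 (edgeR adjusted p = 0.266) and Kcnk15 had no count in any library. In TC + ATA versus TC, 0 of the 12 passed in edgeR or DESeq2, and 2 higher and 2 lower had an unadjusted p under 0.05. The edgeR shares over all genes were 0.426% higher and 0.156% lower.

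Members overlap antisense genes in 2 places, and the use of strand in counting is not given in the sources used here. Gm15270 overlaps 665 of the 2861 exonic bases of Ccn2 and had 7 to 27 reads per library, against 7809 to 11363 for Ccn2. Tube1 overlaps 482 of the 1419 exonic bases of Ccn6 and had 809 to 1374 reads, against at most 16 for Ccn6. How many of the few Ccn6 reads come from either gene was not tested.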

How the data were processed

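Poly(A)-selected RNA of NIH3T3 cells was sequenced in 6 libraries, from EV (2), TC (1) and TC + ATA (3) cells, grouped by the sample labels. The authors sequenced paired-end reads, aligned them to GRCm38.p6 with HISAT2 (2.2.1 in the submitters' processing notes) and deposited raw counts per gene from featureCounts. The annotation release and the strand setting are not given in the sources used here.

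From the counts, log2 fold changes and p-values were computed with edgeR 4.0.16 in R 4.3.3 (TMM, filterByExpr, glmQLFit and glmQLFTest, 1 fit over all 6 libraries with 3 residual degrees of freedom, Benjamini-Hochberg adjustment over 18539 genes). Standard errors were derived from the F statistic. All 6 members passed the filter, Ccn6 through its higher libraries. Because TC has 1 library, the fit takes the spread from EV and TC + ATA. Symbols, positions and exonic lengths came from GENCODE M21 on GRCm38, which held 55141 of the 55401 identifiers, and promoters from RefSeq on GRCm38.p6.

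Library totals were 58471484 to 74413193 counts, so the floor of 3 counts is 0.0393 to 0.0528 CPM. Intervals of counts are exact Poisson intervals and cover counting error only.

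The members and gene lists were chosen with earlier results of these data known. Named genes are all members, the 3 protein-coding genes most like each member with a mean of at least 5 CPM (distance on log2(CPM + 0.5)), the nearest and overlapping genes, and from each list the 3 with the smallest adjusted p in each comparison with TC. The text names some of the neighbours, and the other named genes follow this rule, with some exceptions. Itgam, Tead2, Tead3, Cdh5, Kdr, Pecam1, Dcn, Thy1, Pdgfra, Fn1, Vim and Col1a1 were named after their values were seen. Alternatives were other scalings, DESeq2 1.42.0, other filters, only the groups compared, a replicate block, another prior count, and fits without single replicates of EV or TC + ATA. The edgeR step was tested on simulated data.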

Additional observations from a re-analysis of the deposited data

How the results depend on the processing

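Every called CCN member kept its direction and its call in 14 of 14 alternatives, with log2 fold changes in TC versus EV of 1.22 to 1.5 for Ccn1, 0.48 to 0.64 for Ccn2, 0.58 to 0.70 for Ccn4 and −2.18 to −2.04 for Ccn5, and in TC + ATA versus TC of 2.29 to 2.36 for Ccn5 (highest adjusted p = 0.0336 from edgeR). No other member became called in any of them. Not every alternative could change a call: the other prior count alters fold changes and leaves p-values as they were. For TC versus EV, leaving out a TC + ATA replicate changes the spread but not the libraries compared. The fits without an EV replicate leave 1 EV library and take the spread from TC + ATA, so they do not test the calls. Every alternative uses the same TC library. The direction of Ccn3 and Ccn6, which were never called, turned: without one replicate at a time, Ccn3 was between −0.55 and 0.080 relative to TC and between −0.073 and 1.28 in TC + ATA versus EV, and Ccn6 between −0.62 and 0.82 in TC + ATA versus EV. Replicates 1 and 2 occur in both EV and TC + ATA, but their deviations did not go together (correlation −0.09 across 18539 genes, which are not independent replicates). The labels do not say whether equal numbers mark a pairing, and this correlation cannot decide it. With the replicate block, Ccn6 in TC + ATA versus EV was −0.62, no call of a member changed, and the calls over all genes went from 2735 higher and 2456 lower to 1717 and 1467 in TC versus EV and from 79 and 29 to 32 and 8 in TC + ATA versus TC. Without the scaling by length, the mean Ccn1 to Ccn2 ratios were 2.87 in EV, 4.86 in TC and 4.81 in TC + ATA. Of the 3 genes nearest to a member, Pearson correlation gave 0 again for Ccn1 and Ccn4 and 1 for Ccn5.

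With scaling by library size alone, the median log2 fold change of all genes in TC versus EV went from −0.03 to −0.13, and the share of higher calls among all calls from 52.7% to 39.6% (TC + ATA versus EV: from 49.2% to 38.2%). In TC + ATA versus TC, the calls over all genes were 236 higher and 84 lower with DESeq2, 242 and 108 with no filter, 795 and 633 with only the groups compared, 707 and 762 without EV replicate 1, 808 and 608 without EV replicate 2, and 28 and 12, 21 and 7, and 7 and 3 without TC + ATA replicates 1, 2 and 3. In the fits without an EV replicate, EV has 1 library and is assumed to vary like TC + ATA. A filter of at least 1 CPM in 2 libraries left no value for Ccn3 and Ccn6. The TC library cannot be left out.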
